A study of Mus musculus with 6 samples.

Results

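Aminoacyl-tRNA synthetases are the enzymes that attach each amino acid to its transfer RNA. They were taken from the gene table by name: 36 genes, all of which were found, out of 54532 in the table, with 20 counted as cytosolic and 16, whose symbols end in 2, as mitochondrial. Bulk RNA-seq was done on mouse macrophages, washed from the peritoneum 4 days after a thioglycollate injection and left 6 h to adhere. The SAHH-KO group (3 libraries, titled SAHH-KO and given the genotype SAHH knockdown) was set against control (3 libraries, titled shControl and given the genotype WT). In all 6 libraries the cells had received interferon-γ (2 ng/mL) together with lipopolysaccharide (10 ng/mL) for 8 h, so no value describes unstimulated cells. The labels do not say how S-adenosylhomocysteine hydrolase was lowered, and they do not tie replicates to different mice or cultures, so p-values here reflect sample-to-sample spread that may be technical.

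Each synthetase loads a single amino acid, apart from the bifunctional enzyme encoded by Eprs, which loads glutamate and proline. The enzymes fall into class I and class II, which have unrelated catalytic folds. In the mammalian cytosol 8 of the 20 gene products sit in a multisynthetase complex held together by the scaffold proteins of Aimp1, Aimp2 and Eef1e1. A second set of enzymes, encoded in the nucleus and imported, serves translation in mitochondria, while Gars and Kars each encode a cytosolic and a mitochondrial form. When amino acids run short, uncharged tRNA activates the kinase GCN2 (Eif2ak4), phosphorylated eIF2α favours translation of the transcription factor ATF4, and ATF4 induces amino acid synthesis and transport genes and many cytosolic synthetase genes. Wars, for tryptophan, is also known as a gene induced by interferon-γ.

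Gene-assigned reads numbered 15856261 to 17748745 per library in SAHH-KO and 15540442 to 16676534 in control. The targeted gene Ahcy had 5.51, 5.50 and 6.23 FPKM (fragments per kilobase of gene length after scaling for library size) in SAHH-KO, against 25.8, 22.6 and 24.4 FPKM in control. Macrophage markers, mainly Lyz2 and Cd14, summed to 9320 to 10586 FPKM in SAHH-KO and 8344 to 8645 FPKM in control. Of 7 that were tested, 4 rose, beside 26.4% of all 10362 genes tested. They were Fcgr1 (4.79-fold), Adgre1 (2.09-fold), Itgam (1.43-fold) and Cd14 (1.17-fold). Cd68, Csf1r and Lyz2 were not called, and Mertk had 2 reads in all. The marker calls were not followed under other scalings. The lists of B, T or NK, mast, fibroblast or mesothelial and endothelial cells summed to at most 0.370 FPKM in any library, and the dendritic list to 1.07 to 1.37 FPKM in SAHH-KO and 1.13 to 1.40 FPKM in control. Neutrophil markers summed to 0 to 0.473 FPKM in SAHH-KO and 4.13 to 5.10 FPKM in control. Of the 6 markers, 4, Ly6g, Mpo, S100a9 and Cxcr2, were at 0 in every library, and Elane had 1 read in all. The difference was thus that of a single gene, S100a8, with 0, 0.473 and 0.0936 FPKM in SAHH-KO against 4.13, 5.10 and 4.675 FPKM in control. The part of these marker differences in the results below was not tested. In bulk samples a change in the share of a cell type and a change in RNA per cell cannot be told apart.

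The cytosolic synthetase genes were mostly higher in SAHH-KO. Of 20 tested, 15 rose, none fell and 5 did not pass the test, where 26.4% of all 10362 genes tested were called higher and 26.8% lower (limma on log2(FPKM + 1), Benjamini-Hochberg adjusted p under 0.05), 53.3% in either direction. The median log2 fold change of the 20 was 0.58, with a range of -0.14 to 1.08, beside -0.0093 over all genes tested. In 17 of the 20, every SAHH-KO library lay above every control library, which was so for 30.7% of all genes tested, and in Hars every SAHH-KO library lay below, as for 31.6% of genes. Groups that did not overlap in either direction made up 62.3% of all genes tested. Of the mitochondrial genes 4 rose and 4 fell among 16 tested, shares of 25% each, near the background. With TPM or assigned-read scaling 1 rose and 7 fell. Of all 10362 genes tested, 2006 were then higher and 3894 lower with TPM, and 2033 and 3905 with assigned reads. Only 2 rose without SAHH-KO replicate 1 or 2, and only 1 without SAHH-KO replicate 3 or control replicate 3. Summed FPKM of the 20 cytosolic genes was 1935, 1907 and 1910 in SAHH-KO and 1173, 1214 and 1176 in control, while the 16 mitochondrial genes summed to 83.6, 79.98 and 83.3 in SAHH-KO and 80.8, 77.8 and 78.9 in control.

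**Figure D1:**
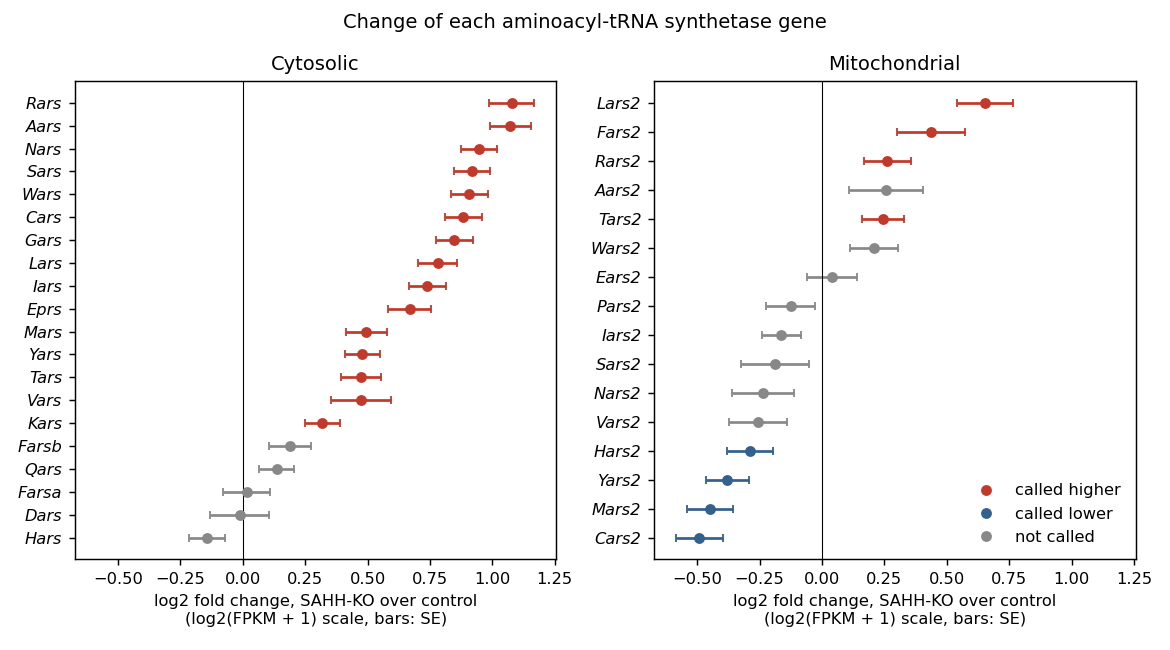
Log2 fold change of each synthetase gene, SAHH-KO over control (x axis, log2(FPKM + 1) scale, bars are SE), with cytosolic genes in the left panel and mitochondrial genes in the right. Called genes are coloured: 15 cytosolic genes lie to the right of 0 and none to the left, while the mitochondrial panel has 4 on each side.

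Among enzymes of the multisynthetase complex 6 of 8 rose (75%), beside 26.4% of all genes tested. Rars, for arginine, changed most, with 185.5, 195.6 and 190.3 FPKM in SAHH-KO against 79.4, 97.9 and 93.0 FPKM in control. That was 2.11-fold (log2 fold change 1.08, SE 0.0913, limma adjusted p = 3.30e-05). Rars (ENSMUSG00000018848) lies on chromosome 11 of GRCm38, bases 35808381 to 35834506, minus strand, and its transcript with the longest coding sequence has 15 exons. The leucine and isoleucine enzyme genes rose less. Lars had 118, 111 and 110 FPKM in SAHH-KO against 67.0, 69.1 and 60.8 FPKM in control (1.73-fold, adjusted p = 8.68e-05). Iars had 95.8, 98.8 and 102 FPKM in SAHH-KO against 61.7, 59.7 and 55.2 FPKM in control (1.68-fold, adjusted p = 9.25e-05). The groups did not overlap for either gene. Eprs, on chromosome 1, had 39.9, 34.4 and 36.6 FPKM in SAHH-KO against 21.9, 24.4 and 22.3 FPKM in control, a ratio of 1.62 (adjusted p = 0.000317).

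Mars, which loads methionine onto the initiator as well as the elongator tRNA, had 81.9, 72.4 and 73.8 FPKM in SAHH-KO against 56.6, 52.7 and 51.6 FPKM in control (1.42-fold, adjusted p = 0.00119). It lies on chromosome 10, bases 127296221 to 127311786, and 68 of its exon bases are shared with Ddit3 on the opposite strand. Ddit3, which encodes the stress factor CHOP and was looked at here as this neighbour, averaged 40.2 ± 5.62 FPKM in SAHH-KO and 9.07 ± 0.996 FPKM in control (SD, n = 3 each). No source used here says whether reads were counted by strand. Kars, for lysine, had 53.1, 49.6 and 50.5 FPKM in SAHH-KO against 40.8, 39.8 and 41.5 FPKM in control, the smallest rise among the called cytosolic genes at 1.25-fold (adjusted p = 0.00569). Kars lost its call when values were rescaled to TPM (adjusted p = 0.0874) or to assigned reads (0.0840). The remaining enzymes of the complex did not pass. Qars, for glutamine, averaged 27.2 ± 0.343 FPKM in SAHH-KO and 24.6 ± 0.503 FPKM in control (adjusted p = 0.132), and Dars, for aspartate, 28.7 ± 1.06 FPKM in SAHH-KO and 29.2 ± 4.87 FPKM in control (adjusted p = 0.943).

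Of the 3 scaffold genes of the complex none rose and 2 fell, beside 26.4% and 26.8% of all genes tested. Aimp2 had a mean of 15.3 ± 1.77 FPKM in SAHH-KO and 24.3 ± 0.818 FPKM in control (log2 fold change -0.64, SE 0.0969, limma adjusted p = 0.000757). Eef1e1, which encodes AIMP3, averaged 30.6 ± 0.298 FPKM in SAHH-KO and 39.97 ± 5.23 FPKM in control (log2 fold change -0.37, adjusted p = 0.0162). Without control replicate 3 this fall missed the threshold (adjusted p = 0.0655). Aimp1 averaged 14.8 ± 1.199 FPKM in SAHH-KO and 13.1 ± 1.195 FPKM in control and was not called (adjusted p = 0.172).

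Outside the complex 9 of 12 cytosolic genes rose, beside 26.4% of all genes tested. The share outside the complex, 75%, was the same as within it. Aars, for alanine, had 63.8, 59.7 and 60.6 FPKM in SAHH-KO against 31.4, 27.4 and 27.3 FPKM in control, a ratio of 2.14 (log2 fold change 1.07, SE 0.0830, adjusted p = 2.07e-05). It lies on chromosome 8, bases 111033144 to 111057664, plus strand, and 15.1% of its exon bases are annotated to other genes too, mainly Exosc6 on the same strand, which is listed at 0 in all libraries. Nars, for asparagine, had the highest FPKM of the members, a rank that depends on the gene length used. Its values were 364, 365.5 and 370.8 FPKM in SAHH-KO against 181, 202 and 187 FPKM in control (1.93-fold, adjusted p = 1.90e-05). Neither gene had overlapping groups. Sars, for serine, had 182, 167 and 178 FPKM in SAHH-KO against 91.5, 90.9 and 95.1 FPKM in control (1.901-fold, adjusted p = 2.11e-05). Gars, for glycine, had 174, 176 and 168 FPKM in SAHH-KO against 90.2, 101 and 95.0 FPKM in control (1.81-fold, adjusted p = 3.97e-05).

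Wars, the tryptophan enzyme, had 111, 100.1 and 102 FPKM in SAHH-KO against 55.5, 54.9 and 54.9 FPKM in control. The ratio was 1.89 (log2 fold change 0.91, SE 0.0739, adjusted p = 2.65e-05), and the SD of the control libraries was 0.344 FPKM. Wars (ENSMUSG00000021266) is on chromosome 12, bases 108860030 to 108894174, minus strand. Cars, for cysteine, had 38.7, 39.5 and 39.8 FPKM in SAHH-KO against 21.9, 20.9 and 19.8 FPKM in control (1.88-fold, adjusted p = 3.13e-05). These changes were as large as those of the serine and glycine genes, with ratios between 1.81 and 1.901.

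Smaller rises were seen for tyrosine, threonine and valine. Yars had 42.7, 43.5 and 43.5 FPKM in SAHH-KO against 29.9, 30.9 and 31.4 FPKM in control (1.41-fold, adjusted p = 0.000613). Tars had 57.9, 66.0 and 61.7 FPKM in SAHH-KO against 42.1, 45.9 and 44.7 FPKM in control (1.398-fold, adjusted p = 0.00144). Vars had 88.4, 80.7 and 84.6 FPKM in SAHH-KO against 73.0, 52.2 and 58.5 FPKM in control, with control replicate 1 closest to SAHH-KO (1.38-fold, adjusted p = 0.0108). The Vars call was lost with TPM scaling (adjusted p = 0.0629) and with assigned-read scaling (0.0528).

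The phenylalanine and histidine enzymes did not pass the test. Phenylalanyl-tRNA synthetase is built from 2 kinds of subunit. Its α subunit gene Farsa averaged 27.4 ± 1.02 FPKM in SAHH-KO and 27.2 ± 3.05 FPKM in control (adjusted p = 0.8996), and its β subunit gene Farsb 77.99 ± 1.997 FPKM in SAHH-KO and 68.4 ± 5.82 FPKM in control (adjusted p = 0.0854). Farsb passed without control replicate 2 (adjusted p = 0.0324). Hars had 77.3, 84.4 and 77.3 FPKM in SAHH-KO against 88.0, 87.6 and 88.4 FPKM in control, so all SAHH-KO values were below control (log2 fold change -0.14, adjusted p = 0.125). It passed as lower with TPM scaling (log2 fold change -0.31, adjusted p = 0.00924) and with assigned-read scaling (-0.30, adjusted p = 0.00904). By fold type, 8 of 9 class I and 6 of 10 class II cytosolic genes rose, beside 26.4% of all genes tested. The class medians were 0.74 and 0.396 on the log2 scale. Eprs, which holds a catalytic domain of each class, is in neither count. With TPM or assigned-read scaling Vars of class I and Kars of class II lost their calls. A difference between the classes was not tested.

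**Figure D2:**
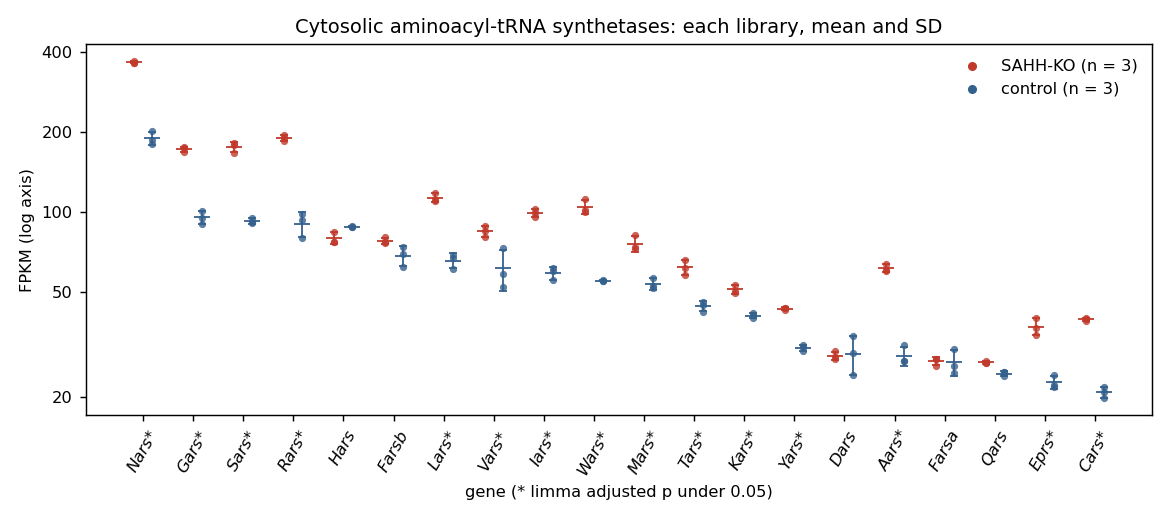
FPKM of the 20 cytosolic synthetase genes (y axis, log scale) in each library, with SAHH-KO points left of control points, and bars for mean and SD (n = 3 each). The genes run from the highest to the lowest control mean, with Nars at 190 FPKM and Cars at 20.9 FPKM, and the groups overlap for Dars and Farsa alone.

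The start regions of the cytosolic genes were searched for the C/EBP-ATF response element, the composite site through which ATF4 acts with a C/EBP partner. RefSeq start windows (GRCm38.p6, 250 bases before to 50 after the annotated start) were matched for 27 of the 36 members. Cars, Hars, Hars2, Lars, Nars, Pars2, Rars, Vars and Wars had none. The motif TGATGNAA was searched on both strands, and overlapping matches were allowed. It occurred in 5 of 13 cytosolic and in 0 of 14 mitochondrial genes with a window, in 3.97% of all 32851 windows and in 2.73% of 7549 genes tested for expression. The stricter form TGATGCAA, which is contained in the first, occurred in 4 of the 13 and in 0.895% of all windows. All 5 genes with the motif were among the 9 called cytosolic genes that had a window, and the 4 uncalled ones had no match. These are few genes, and a link between the motif and the call was not tested. Cars, Lars, Nars, Rars, Vars and Wars were called too but had no window to search. In the list of other ATF4 targets described below, 8 of 25 genes with a window (32%) held TGATGNAA. A match describes letters in the window and does not show that a factor binds there.

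The stretches around these matches are shown so that the motif can be read in the 5 genes that hold it. Eprs, Kars, Mars and Sars rose and held no match in their windows. Each is read 5′ to 3′ on the gene's strand with the matched 8 bases in capitals. In Aars, Gars, Iars and Tars the match reads as TTGCATCA or TTTCATCA, the opposite strand of the motif, and in Yars as TGATGCAA. The first base of the match lay 112 bases before the start in Aars, 30 before it in Gars and 15 before it in Tars, at base 8 of the transcript in Iars and at base 4 in Yars. Aars held a second match, TTTCATCA, at base 10 of the transcript.
Aars, chr8:111033690-111033777, plus strand: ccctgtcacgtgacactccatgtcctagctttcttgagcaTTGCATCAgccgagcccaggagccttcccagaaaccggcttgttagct
Gars, chr6:55037931-55038000, plus strand: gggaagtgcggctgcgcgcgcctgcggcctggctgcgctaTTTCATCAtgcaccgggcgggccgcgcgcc
Tars, chr15:11399659-11399713, minus strand: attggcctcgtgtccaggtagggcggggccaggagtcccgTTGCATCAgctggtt
Iars, chr13:49682126-49682155, plus strand: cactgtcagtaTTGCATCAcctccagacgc
Yars, chr4:129189895-129189924, plus strand: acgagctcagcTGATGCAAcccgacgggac

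The mitochondrial synthetase genes were expressed at a lower level than the cytosolic ones, with group means of 1.02 to 13.1 FPKM in SAHH-KO and 1.53 to 12.5 FPKM in control, where the cytosolic genes had 27.2 to 367 FPKM in SAHH-KO and 20.9 to 190 FPKM in control. Values per length between genes depend on the annotated exon length. Reads per library were as few as 56 to 85 for Pars2, so the precision is lower here. The median log2 fold change of the 16 genes was -0.14, and the groups did not overlap for 5 genes that were above and 6 that were below control, near the 30.7% and 31.6% of all genes tested.

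Among the mitochondrial genes that rose, Lars2, for leucine, had the largest change. Its values were 14.9, 11.1 and 13.4 FPKM in SAHH-KO against 8.51, 7.51 and 7.82 FPKM in control (1.65-fold, log2 fold change 0.65, SE 0.113, limma adjusted p = 0.00156). It kept its call under each alternative, with adjusted p of at most 0.0102. Lars2 (ENSMUSG00000035202) is on chromosome 9, bases 123366927 to 123462666, plus strand. Fars2, for phenylalanine, had 5.70, 3.90 and 5.10 FPKM in SAHH-KO against 3.81, 3.27 and 2.93 FPKM in control (adjusted p = 0.0247), and the lowest SAHH-KO value lay just above the highest control value. Of its exon bases 10.7% are shared with Nrn1 and other genes, and Nrn1 had 1 read in all. Rars2, for arginine, had 10.8, 12.4 and 12.1 FPKM in SAHH-KO against 8.79, 10.4 and 9.71 FPKM in control (adjusted p = 0.0435). Tars2, for threonine, had 11.7, 10.6 and 10.4 FPKM in SAHH-KO against 9.37, 8.47 and 9.26 FPKM in control (adjusted p = 0.0376).

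The calls of Fars2, Rars2 and Tars2 were not stable. All were lost with TPM scaling (adjusted p = 0.0800, 0.342 and 0.350), with assigned-read scaling (0.0729, 0.337 and 0.339) and without a filter on low genes (0.0875, 0.0793 and 0.0525). Fars2 also missed the threshold without SAHH-KO replicate 1 or 3 or control replicate 2 or 3 (adjusted p = 0.0564 to 0.0896). Rars2 missed it without SAHH-KO replicate 2 or 3 or control replicate 1 or 3 (0.0880 to 0.146), and Tars2 without any SAHH-KO replicate or control replicate 2 or 3 (0.0720 to 0.127).

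Of the mitochondrial genes that fell, Cars2, for cysteine, changed most. It had 1.07, 1.05 and 0.934 FPKM in SAHH-KO against 1.77, 1.84 and 1.91 FPKM in control, 55.5% of the control mean (log2 fold change -0.49, SE 0.0934, adjusted p = 0.00256). Cars2 (ENSMUSG00000056228) is on chromosome 8, bases 11513977 to 11550783, minus strand. Of its exon bases 5.83% are shared, mainly with Naxd on the opposite strand, which rose (mean 11.5 ± 1.82 FPKM in SAHH-KO and 7.99 ± 0.835 FPKM in control). Mars2, a single-exon gene for the methionine enzyme, had 1.34, 1.44 and 1.30 FPKM in SAHH-KO against 2.37, 2.10 and 2.18 FPKM in control (61.3% of the control mean, adjusted p = 0.00386). Yars2, for tyrosine, had 8.97, 9.64 and 9.43 FPKM in SAHH-KO against 11.3, 13.1 and 13.0 FPKM in control (74.9%, adjusted p = 0.00613). For these 3 genes every SAHH-KO value was below every control value, and they kept their calls under each alternative.

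Hars2, the mitochondrial histidine enzyme, had 3.20, 3.50 and 3.64 FPKM in SAHH-KO against 4.06, 4.49 and 4.76 FPKM in control (77.7% of the control mean, adjusted p = 0.0277). Its call was lost without a filter on low genes (adjusted p = 0.0612), without any SAHH-KO replicate and without control replicate 2 or 3 (0.0547 to 0.115). Hars and Hars2 lie head to head on chromosome 18 (bases 36766530 to 36783205, minus strand, and 36783008 to 36792562, plus strand) and share 195 exon bases. Both were lower in SAHH-KO in every library, although the Hars difference did not pass.

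The other 8 mitochondrial genes did not pass. Wars2 lay above control in every SAHH-KO library, with 3.70, 3.69 and 4.00 FPKM against 3.01, 3.57 and 2.897 FPKM in control (adjusted p = 0.0979), and it passed without control replicate 2 (adjusted p = 0.0363). Iars2 and Pars2 lay below control in every SAHH-KO library, at 88.3% and 86.3% of the control mean (adjusted p = 0.114 and 0.306). Of the Iars2 exon bases 24.2% are shared, mainly with Rab3gap2 on the opposite strand. The groups overlapped for Aars2, Ears2, Nars2, Sars2 and Vars2, whose ratios ranged from 0.769 for Nars2 to 1.27 for Aars2. With TPM and with assigned-read scaling Iars2, Nars2 and Vars2 were called lower, so that 7 mitochondrial genes were lower and 1 higher, and in the cytosolic set 13 were higher and 1 lower. The median log2 fold change over all tested genes was -0.16 with TPM and -0.14 with assigned-read scaling.

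**Figure D3:**
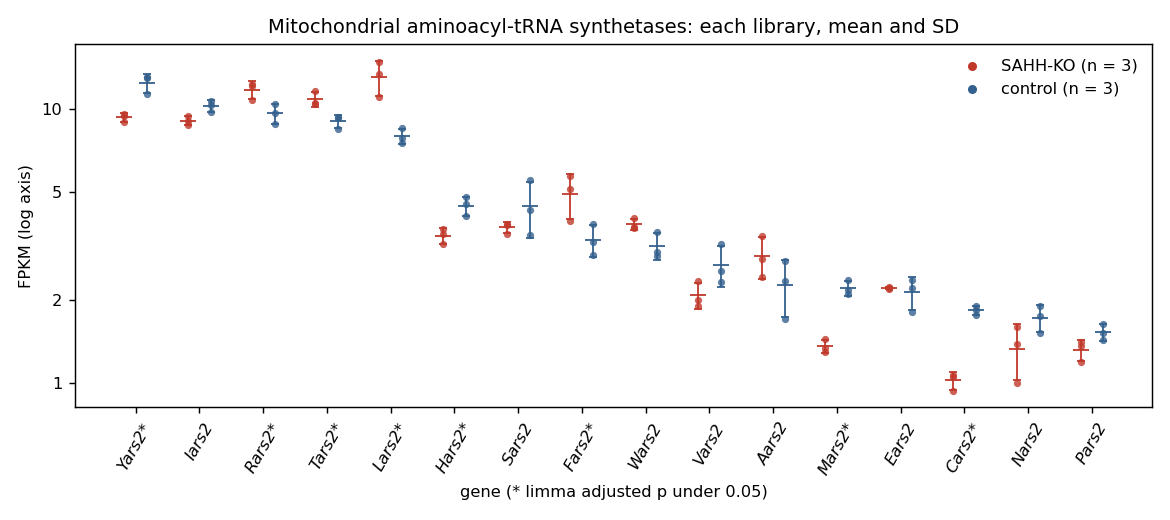
FPKM of the 16 mitochondrial synthetase genes (y axis, log scale) in each library, with SAHH-KO points left of control points, and bars for mean and SD (n = 3 each). Yars2, Hars2, Mars2 and Cars2 lie lower and Lars2, Fars2, Rars2 and Tars2 higher in SAHH-KO, within a range of about 1 to 15 FPKM.

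For each amino acid with an enzyme in both sets, the cytosolic FPKM was divided by the mitochondrial FPKM in each library. These ratios do not depend on library scaling. There were 17 ratios, with Fars2 set against each cytosolic subunit gene and Eprs set against Ears2 and Pars2. In 12 of them all SAHH-KO libraries lay above all control libraries, in 4 the groups overlapped, and in 1 SAHH-KO lay below. Of all single genes tested, 30.7% lay above and 31.6% below, and no such share was worked out for ratios. The ratios are not independent, since Eprs and Fars2 enter more than once. Each also carries the change of its cytosolic gene described above. The ratio for cysteine differed most, at 36.1, 37.5 and 42.7 in SAHH-KO against 12.4, 11.4 and 10.4 in control, where Cars rose and Cars2 fell. For asparagine it was 264, 228 and 371.5 in SAHH-KO against 119, 115 and 98.2 in control. Nars rose, while Nars2 did not pass the test. The methionine ratio was 61.3, 50.2 and 56.8 in SAHH-KO against 23.8, 25.1 and 23.6 in control. In the tyrosine ratio, 4.76, 4.51 and 4.61 in SAHH-KO stood against 2.63, 2.36 and 2.42 in control.

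Leucine, threonine, histidine and phenylalanine did not follow that pattern. Lars and Lars2 rose by similar amounts, and their ratio overlapped, at 7.93, 10.04 and 8.21 in SAHH-KO and 7.87, 9.19 and 7.77 in control. The ratios Tars/Tars2, Hars/Hars2 and Farsb/Fars2 overlapped too. Farsa/Fars2 was lower in SAHH-KO, at 4.60, 7.18 and 5.49 against 8.02, 7.53 and 9.004 in control. Over the 17 ratios the SAHH-KO mean was between 0.704 and 3.40 times the control mean, with a median of 1.74. The ratios are given as a description, with no test.

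**Figure D4:**
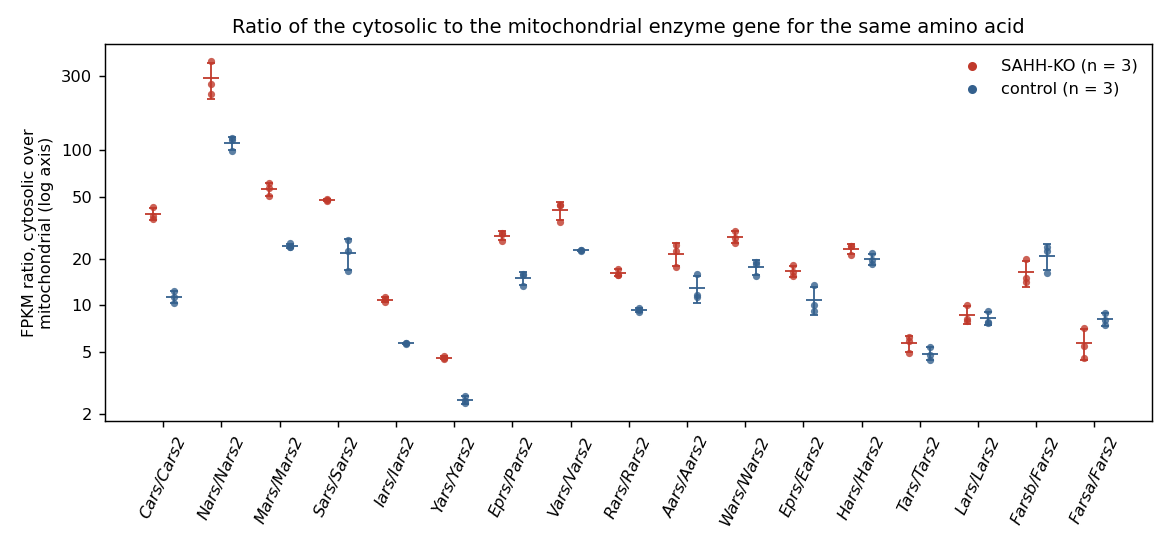
Ratio of cytosolic to mitochondrial FPKM (y axis, log scale) for each amino acid in each library, with SAHH-KO points left of control points, and bars for mean and SD (n = 3 each). From left to right the SAHH-KO to control quotient falls from 3.40 for Cars/Cars2 to 0.704 for Farsa/Fars2, and the first 12 ratios do not overlap.

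The genes around the synthetases were described from lists. Of 27 tested genes in a list of ATF4 targets other than synthetases, 26 rose and 1 fell, beside 26.4% and 26.8% of all genes tested. The median log2 fold change of the list was 1.13. Like the other lists, it was chosen with earlier results of these data known, so its count is no independent support. Trib3, a pseudokinase, averaged 51.75 ± 7.21 FPKM in SAHH-KO and 8.58 ± 0.646 FPKM in control (log2 fold change 2.45, limma adjusted p = 1.44e-06). Chac1, which breaks down glutathione, averaged 58.1 ± 0.892 FPKM in SAHH-KO and 16.4 ± 0.304 FPKM in control. Sesn2, a leucine sensor that restrains mTORC1, rose 3.65-fold and Cth, which makes cysteine from cystathionine, 5.125-fold. The gene that fell was Slc7a11, the cystine transporter, at 10.75 ± 0.771 FPKM in SAHH-KO and 27.15 ± 1.83 FPKM in control. The cytosolic synthetases had a smaller median than this list, 0.58, and their largest rise was 2.14-fold.

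Atf4 itself averaged 292 ± 17.96 FPKM in SAHH-KO and 161 ± 12.97 FPKM in control (1.81-fold, adjusted p = 9.39e-05). Of 8 other genes in the list of eIF2α, its kinases and their regulators, 3 rose and 3 fell, beside 26.4% and 26.8% of all genes tested. Eif2ak2, the interferon-inducible kinase PKR, averaged 44.2 ± 2.598 FPKM in SAHH-KO and 13.1 ± 1.36 FPKM in control, and the GCN2 gene Eif2ak4 5.46 ± 0.0909 FPKM in SAHH-KO and 4.05 ± 0.233 FPKM in control (adjusted p = 0.00642). Ppp1r15b, a regulatory subunit of an eIF2α phosphatase, rose 1.34-fold. Eif2ak3, the kinase PERK of the endoplasmic reticulum, fell to 1.83 ± 0.295 FPKM in SAHH-KO, against 2.82 ± 0.293 FPKM in control. Impact, an inhibitor of GCN2 activation, fell to 9.19 ± 1.32 FPKM in SAHH-KO, against 14.2 ± 1.34 FPKM in control, and Eif2s1, which encodes eIF2α, to 32.8 ± 1.94 FPKM in SAHH-KO, against 47.97 ± 9.64 FPKM in control. The Eif2s1 call was lost without a filter on low genes (adjusted p = 0.0599) and without SAHH-KO replicate 1 (0.0505). These are transcript levels and say nothing of phosphorylation, and a link from these genes to the synthetase changes was not tested.

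Of 17 amino acid transporter genes tested, 7 rose and 5 fell, beside 26.4% and 26.8% of all genes tested. The glycine transporter gene Slc6a9 averaged 7.99 ± 0.646 FPKM in SAHH-KO and 1.34 ± 0.232 FPKM in control, and the neutral amino acid transporter gene Slc1a4 12.6 ± 0.967 FPKM in SAHH-KO and 3.63 ± 0.1996 FPKM in control. Slc7a7 rose 2.73-fold and Slc7a5, which takes up large neutral amino acids such as leucine and tryptophan, 1.66-fold. Slc7a2, a transporter of arginine and lysine, fell to 0.948 ± 0.142 FPKM in SAHH-KO, against 4.50 ± 0.664 FPKM in control. Slc36a4 and Slc7a6 fell to 0.499 and 0.625 of the control mean, and Slc7a11, which is also in this list, is given above.

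Among 10 tested partners of the synthetases in tRNA handling, 5 fell and 2 rose, beside 26.8% and 26.4% of all genes tested. Nsun2, a tRNA cytosine methyltransferase, averaged 37.8 ± 2.82 FPKM in SAHH-KO and 56.1 ± 2.33 FPKM in control (adjusted p = 0.000668). Trnt1, which adds the CCA end that synthetases load, averaged 9.23 ± 0.835 FPKM in SAHH-KO and 14.3 ± 3.23 FPKM in control (adjusted p = 0.0137). Ptrh2, a peptidyl-tRNA hydrolase gene, fell to 0.695 of the control mean. Dtd1, which removes D-amino acids from tRNA, rose 1.65-fold, and Xpot, the export receptor of tRNA, which is also in the list of ATF4 targets, 1.21-fold (adjusted p = 0.0207). Without a filter on low genes the Trnt1 call was lost (adjusted p = 0.0599). The Xpot call was lost with TPM (0.277) and assigned-read scaling (0.2701) and without SAHH-KO replicate 2 or 3 or control replicate 3 (0.0716 to 0.0799).

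Of 18 tested partners of the mitochondrial enzymes, 2 rose and 3 fell, where 53.3% of all genes tested were called in either direction. Gatc, a subunit of the complex that makes mitochondrial glutaminyl-tRNA, averaged 5.12 ± 0.446 FPKM in SAHH-KO and 8.06 ± 0.606 FPKM in control (adjusted p = 0.00121). The mitochondrial elongation factor genes Gfm1 and Tufm fell to 0.717 and 0.791 of the control mean (adjusted p = 0.00136 and 0.0186), and without SAHH-KO replicate 3 Tufm missed the threshold (0.0724). Trit1, which modifies an adenosine beside the anticodon, rose 1.52-fold. Gfm2, a ribosome recycling factor gene, rose 1.21-fold (adjusted p = 0.0380), a call that was lost with the replicate number as a block (adjusted p = 0.0659), with TPM (0.341) and assigned-read scaling (0.334), and without any single library other than control replicate 2 (0.0600 to 0.129).

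**Figure D5:**
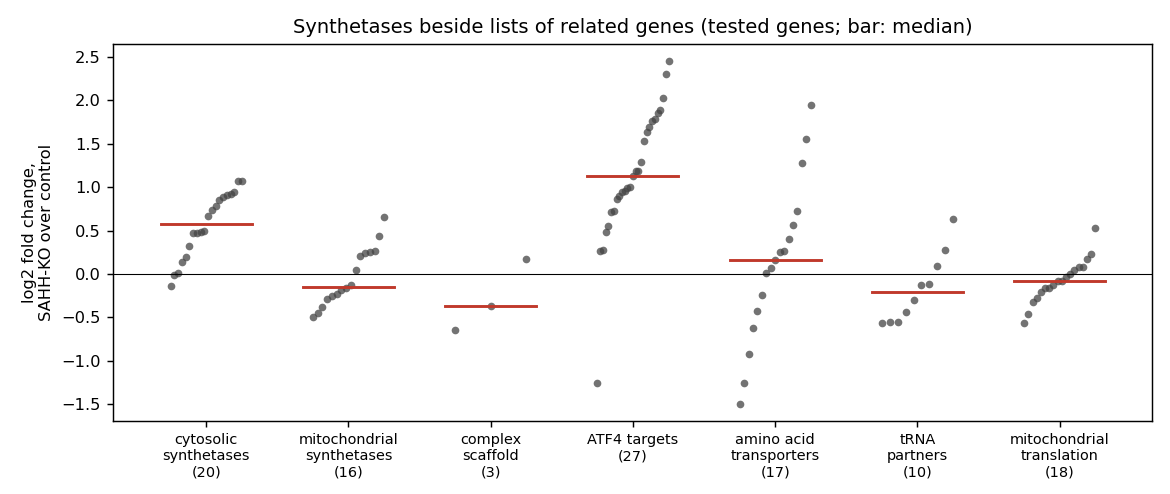
Log2 fold change of each tested gene, SAHH-KO over control (y axis), in the synthetase sets and in lists of related genes, with the number of tested genes under each name and a bar at the median. The ATF4 targets have a median of 1.13 and the cytosolic synthetases of 0.58, while the mitochondrial synthetases have a median of -0.14.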

How the data were processed

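The authors' deposited table holds FPKM (fragments per kilobase of gene length, scaled to library size) for 54532 genes in 6 libraries, 3 SAHH-KO and 3 control. STAR, featureCounts, Trim Galore and FastQC are named, without versions, in the submitters' processing notes, as are mm10 and GRCm38. Strand use and the step from counts to FPKM are not given in the sources used here. FPKM times gene length gave whole reads for 100% of values above 0 within 0.01 of a read, and depth was taken from that step. The test covered 10362 genes, all 36 synthetases among them, that reached 1 FPKM in 3 or more of the 6 libraries. It was limma 3.58.1 in R 4.3.3, with eBayes and its intensity trend, on log2(FPKM + 1), a scale that understates changes of low genes. The group was the only term, two-sided, adjusted by Benjamini-Hochberg over all genes tested, and the script was tested on simulated data. Folds are ratios of mean FPKM. A test for counts had been planned for a table of counts and was not used. For 1 kb of gene, 3 reads equal 0.168 to 0.197 FPKM. Such floors cover counting error only.

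The members and the 7 lists of related genes were chosen with earlier results of these data known. All members are named, with every library's value for the called ones, for Wars2, and for Hars. From each list at most 4 higher and 4 lower genes with the smallest adjusted p are named, and Ddit3, Exosc6, Nrn1, Rab3gap2 and Naxd were looked at as overlapping genes. A result that this rule would name is not reported here. Gcn1 was matched through a RefSeq synonym, and of the 2 identifiers named Ddit3 the expressed one was used. Exon overlap and shared 50-base words were taken from GENCODE M21 (GRCm38). Start sequences are from RefSeq (GRCm38.p6). Equally numbered libraries did not deviate together in each pair (correlations 0.0955, 0.101 and -0.00556), so the numbers were not used as a block. Alternatives were other pseudocounts, filters and scalings, no trend, a replicate block and leaving out each library.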

Additional observations from a re-analysis of the deposited data

How the results depend on the processing

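The cytosolic count of 15 higher and 0 lower stood with pseudocounts of 0.1 and 0.5, both other filters, no intensity trend and the replicate block. The replicate block also left the mitochondrial counts at 4 and 4. With TPM and with assigned-read scaling it was 13 higher and 1 lower, and the mitochondrial count 1 higher and 7 lower, while all tested genes split into 2006 higher and 3894 lower (TPM) and 2033 and 3905 (assigned reads), against 2736 and 2782. Without a filter on low values 1 mitochondrial gene was higher and 3 were lower. Leaving out single libraries gave 15 to 16 cytosolic genes higher and 0 lower, 1 to 3 mitochondrial genes higher and 3 to 4 lower, and 2034 to 2928 higher and 2050 to 2809 lower over all genes. With the replicate block 2729 genes were higher and 2761 lower, and Gfm2 alone of the named genes changed its call. Sign changes arose only in genes that were not called (log2 fold changes): Farsa with TPM (-0.14), assigned reads (-0.14), without control replicate 2 (-0.050) and 3 (-0.0022), Qars with TPM (-0.021) and assigned reads (-0.018), Ears2 with TPM (-0.087), assigned reads (-0.069) and without control replicate 2 (-0.036), and Dars without SAHH-KO replicate 1 (0.0095) and control replicate 2 (0.10), with a range of -0.13 to 0.10 over single libraries left out. The library size behind the deposited FPKM was 0.937 to 0.960 times the assigned reads in SAHH-KO and 1.05 to 1.07 times in control. Assigned-read scaling takes this factor out. Beyond that, the causes of these changes were not tested. Depth limits the precision of the mitochondrial genes, with 56 to 85 reads per library for Pars2.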

Other observations

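The order of the levels among synthetases depends on the gene length used, since the exon length of a gene in the table includes exons of all its annotated transcripts. Eprs has 18102 exon bases in the table, while its transcript with the longest coding sequence has 4906. With all reads divided by the length of that transcript, the Eprs level was 136 in SAHH-KO and 84.4 in control, where the table gives 37.0 FPKM in SAHH-KO and 22.9 FPKM in control. On this scale Sars, at 484.5 in SAHH-KO and 255 in control, was above Nars, at 352 in SAHH-KO and 182 in control. The ratios between groups do not change with the length.

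Genes of tryptophan breakdown were listed at or near 0. None of the 7 genes in that list reached the level needed for a test. Ido1 and Kynu were listed at 0 in all libraries, as was Exosc6, a subunit gene of the RNA exosome that cells use in general. A 0 here therefore does not by itself show that a gene was silent. Exosc6 shares 1326 exon bases with Aars on the same strand, and whether Ido1 or Kynu share exons with other genes was not examined. Haao had 1, Ido2 3, Tdo2 18, Kmo 37 and Afmid 99 reads over the 6 libraries.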
